A study of Mus musculus with 4 samples.

Results

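The developmental timing genes described here are Lin28a, Lin28b, Trim71, Hmga2, Igf2bp1, Igf2bp2, Igf2bp3, Nfia, Nfib and Nfix, 10 of the 27998 genes in the count tables. They were chosen by symbol, with their change with stage in these libraries already known, so that change is described below and not tested. The data were UMI counts (distinct captured transcript molecules) of single cells from 4 mouse libraries, 1 for each embryonic day, with E8.0 and E8.25 called early and E9.5 with E10.5 called late. All 4 libraries came from Mesp1Cre;Rosa26-GFPflox/+ embryos of the Swiss Webster strain, pooled within a stage, and held sorted GFP positive, DAPI negative cells. Cre made from the Mesp1 locus of nascent mesoderm switches on GFP in the descendants of those cells, and no library without the reporter was analysed here. For the early libraries the upper body had been dissected, and for the late ones heart and pharyngeal apparatus, so stage, region and library cannot be told apart.

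Lin28a and Lin28b encode RNA-binding proteins that block the maturation of let-7, a family of microRNAs that accumulates as embryonic cells mature. Let-7 in turn represses transcripts that carry matches to its seed, among them those of Lin28a, Lin28b, the ubiquitin ligase and RNA-binding protein Trim71, the chromatin protein Hmga2 and the mRNA-binding proteins Igf2bp1, Igf2bp2 and Igf2bp3. Nfia, Nfib and Nfix encode nuclear factor I proteins, transcription factors known from the maturation of brain, lung, muscle and blood stem cells. In several embryonic tissues the Lin28 group is known as an early programme and the Nfi group as a late one.

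The seed of let-7 is shown because it is the sequence feature that links the first group of members. RefSeq (GRCm38.p6) lists several mature let-7 microRNAs with the same seed, given here in capitals (bases 2 to 8), and the following differ only in the remaining bases.
mmu-let-7a-5p (Mirlet7a-1, chr13:48538239-48538260, minus strand): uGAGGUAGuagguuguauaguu
mmu-let-7b-5p (Mirlet7b, chr15:85707325-85707346, plus strand): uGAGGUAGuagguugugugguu
mmu-let-7g-5p (Mirlet7g, chr9:106178846-106178867, plus strand): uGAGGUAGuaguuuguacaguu
mmu-miR-98-5p (Mir98, chrX:151913229-151913250, plus strand): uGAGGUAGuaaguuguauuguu

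Matches to that seed were counted as CTACCTC on the transcript strand of the longest 3′ UTR of each gene in the GENCODE vM1 transcripts. At least 1 match was present in 8.83% of 19861 genes, and in 19.98% of the 4505 genes with a 3′ UTR of at least 2000 bases. All 7 members of the Lin28 group held a match, with 4 each in Lin28b, Hmga2 and Igf2bp1, 2 each in Lin28a and Trim71 and 1 each in Igf2bp2 and Igf2bp3. Among all genes, whose median 3′ UTR had 897 bases, 0.131% held 3 or more. The 3′ UTRs of Lin28b, Hmga2 and Igf2bp1 had 4445, 3014 and 6337 bases. The share with 3 or more at such lengths was not computed. Nfia held 1 match in 7639 bases, and none was found in Nfib or Nfix. One site per gene is shown for a pair of members that were lower late and a pair that were not (below), with the 7 matched bases in capitals. Each is the first match that is followed by A. Such matches were 2 of 2 in Lin28a and in Trim71, 1 of 4 in Hmga2 and 3 of 4 in Igf2bp1. The match shown starts at base 909 of the Lin28a 3′ UTR, base 166 of Trim71, base 58 of Hmga2 and base 1715 of Igf2bp1. A match is a description of the sequence, and let-7 itself was not measured.
Lin28a: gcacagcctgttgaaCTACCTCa
Trim71: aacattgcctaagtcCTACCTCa
Hmga2: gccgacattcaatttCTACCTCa
Igf2bp1: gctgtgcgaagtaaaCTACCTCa

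Retained cells were assigned to compartments by marker genes. Cardiomyocytes numbered 283, 39, 435 and 225 in stage order, endothelial cells 556, 185, 182 and 367, muscle progenitors 29, 83, 517 and 696, and blood cells 152, 320, 5 and 1031. Cells passing no gate were called other mesoderm and numbered 6076, 2122, 2761 and 5100. Blood at E9.5 was too small to give values. All 8 cardiomyocyte, all 8 endothelial and all 10 blood markers were present in their own compartment in every library that was used. Of the 7 muscle progenitor markers, Myod1 and Myog were at 0 at E8.0 and Myog at E8.25 and E9.5, so at those stages the compartment rests on the earlier markers such as Tcf21, Lhx2 and Msc. Many cells lay near a threshold: 295 of 556 endothelial cells at E8.0 and 19 of 29 muscle progenitors at E8.0 were less than 2-fold above it. Sums of UMIs per library and compartment ranged from 675678 to 128012977, and levels are given as CPM (UMIs of the gene per 1000000 UMIs of that sum) with an exact 95% Poisson interval, which covers counting error only. Haemoglobin and erythroid transcripts made up 3041 CPM of other mesoderm at E8.25 and 5047 CPM at E10.5, and close to these levels in every other gated compartment outside blood, against 174 and 31.7 CPM at E8.0 and E9.5. Libraries shared 16 to 88 cell barcodes per pair, at most 1.39% of the smaller library.

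Lin28a and Trim71 were lower in the late than in the early libraries in all 4 compartments outside blood. Lin28a (chr4:134003330-134019196, GRCm38.p6) in other mesoderm was at 132 (130 to 134) and 128 (126 to 131) CPM in the early libraries, then 41.9 (40.1 to 43.7) and 8.72 (8.06 to 9.41) CPM in the late ones, always in stage order. In muscle progenitors its level was 144, 160, 48.3 and 12.6 CPM in the same order. Both series held level through the early stages and then declined in a pair of steps. Cardiomyocytes went from 115 (106 to 125) and 141 (121 to 164) CPM to 26.7 (23.1 to 30.6) and 1.91 (0.766 to 3.93) CPM, the last on 7 UMIs. Endothelial cells started lower, at 79.2 (74.2 to 84.4) and 71.3 (64.5 to 78.6) CPM, and reached 11.1 (7.72 to 15.6) and 0.442 (0.0911 to 1.29) CPM, the last on 3 UMIs in 367 cells. Early and late values did not overlap in any of these compartments, and shares of all genes lower late at a 2-fold limit are given below. From E9.5 to E10.5 alone the log2 ratio of Lin28a was -4.66 (-7.00 to -2.99) in endothelial cells and -3.81 (-5.14 to -2.74) in cardiomyocytes. It was -2.26 (-2.39 to -2.14) in other mesoderm and -1.94 (-2.21 to -1.67) in muscle progenitors, with intervals from counting error only.

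Trim71 in other mesoderm was at 58.5 (57.2 to 59.9), 47.5 (45.9 to 49.1), 17.2 (16.1 to 18.4) and 8.54 (7.90 to 9.23) CPM in stage order. It went from 41.2 to 5.72 CPM between E8.0 and E10.5 in cardiomyocytes, from 52.5 to 8.69 CPM in endothelial cells and from 47.4 to 13.5 CPM in muscle progenitors. The endpoints differed by a factor of 6.85 in other mesoderm, 7.21 in cardiomyocytes, 6.04 in endothelial cells and 3.52 in muscle progenitors. Unlike Lin28a, Trim71 stayed measurable in endothelial cells at E10.5, on 59 UMIs.

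Lin28b, the paralogue of Lin28a, differed less between stages. In other mesoderm it was at 23.4, 23.6, 21.0 and 11.9 CPM, so that only the last library lay clearly below the rest. Muscle progenitors gave 39.96 (26.3 to 58.1), 23.5 (18.2 to 29.8), 27.0 (24.0 to 30.3) and 15.95 (13.7 to 18.4) CPM and endothelial cells 18.9, 20.4, 16.1 and 9.28 CPM. Cardiomyocytes had the lowest levels outside blood at every stage, 11.4 (8.69 to 14.7), 12.2 (6.84 to 20.2), 5.89 (4.28 to 7.91) and 2.99 (1.49 to 5.36) CPM. At E10.5 endothelial cells thus held 63 UMIs of Lin28b and 3 of Lin28a.

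**Figure D1:**
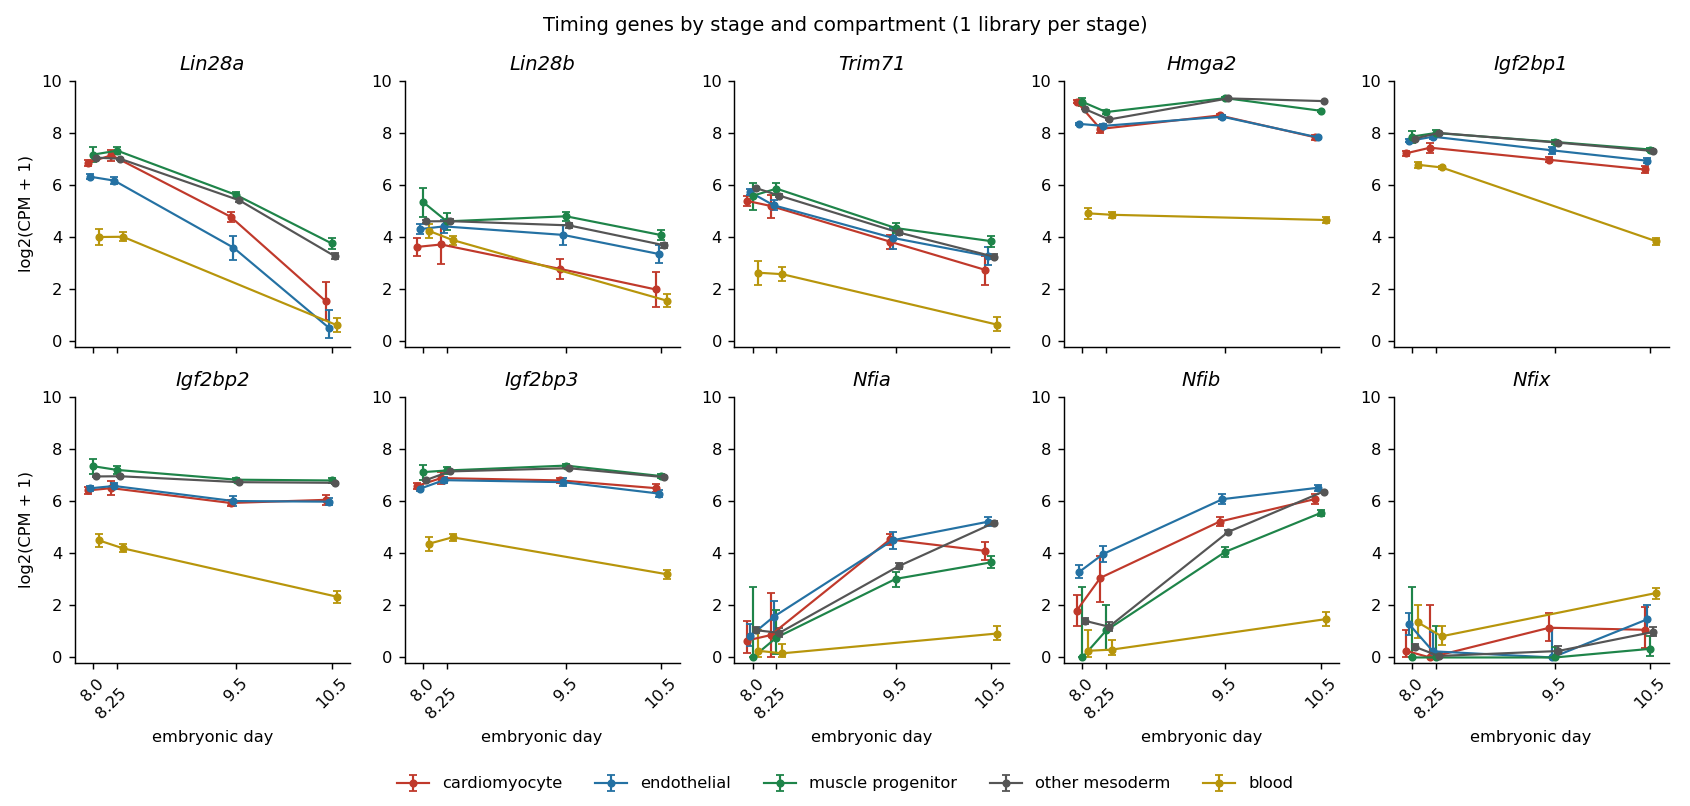
Level of each timing gene, as log2(CPM + 1), against embryonic day in 5 marker-gated compartments, with exact 95% Poisson intervals and 1 library per stage; blood at E9.5 is left out. Lin28a drops from 132 to 8.72 CPM in other mesoderm between E8.0 and E10.5 while Nfib goes from 1.65 to 81.8 CPM, and Hmga2 in cardiomyocytes is at 592, 285, 409 and 228 CPM in stage order.

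Hmga2 and the Igf2bp genes stayed well detected in the late libraries outside blood. Hmga2, which shapes chromatin in growing embryonic cells, was at 483 (479 to 487), 367 (363 to 372), 644 (637 to 651) and 599 (594 to 605) CPM in other mesoderm, with each late value above each early value. In cardiomyocytes it was at 592 (572 to 614), 285 (256 to 317), 409 (394 to 424) and 228 (213 to 244) CPM, with early and late values interleaved. Endothelial cells had 326, 310, 395 and 228 CPM and muscle progenitors 588, 448, 649 and 463 CPM, also interleaved. Igf2bp1, which stabilises fetal mRNAs, was at 220, 256, 198 and 158 CPM in other mesoderm and at 149, 173, 125 and 96.4 CPM in cardiomyocytes, a decline of less than 2-fold in both. Igf2bp2 stood at 123, 123, 105.1 and 103 CPM and Igf2bp3 at 111, 140, 153 and 120 CPM in other mesoderm, the latter with no order by stage. In the 4 compartments outside blood no Igf2bp gene passed the 2-fold limit in either direction.

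Nfia and Nfib, low in the early libraries, were higher late. Nfib was at 1.65 (1.43 to 1.89) and 1.26 (1.02 to 1.55) CPM in early other mesoderm, 27.2 (25.8 to 28.8) CPM at E9.5 and 81.8 (79.7 to 83.8) CPM at E10.5. Cardiomyocytes gave 2.47 (1.31 to 4.22), 7.33 (3.35 to 13.9), 36.2 (32.0 to 40.8) and 66.7 (58.6 to 75.6) CPM. Muscle progenitors had 0 UMIs at E8.0, which allows up to 4.44 CPM, 3 UMIs or 1.05 CPM at E8.25, and then 15.6 (13.4 to 18.2) and 45.8 (42.0 to 49.9) CPM. Endothelial cells already held 8.79 (7.19 to 10.6) CPM at E8.0 and 14.7 (11.7 to 18.2) CPM at E8.25, before 66.5 (57.7 to 76.3) and 90.5 (83.4 to 97.9) CPM. All late values lay above all early ones in each of these compartments, and shares of all genes higher late at a 2-fold limit are given below. The endothelial early values lay above those of every other compartment except that at E8.25 their interval met that of cardiomyocytes.

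Nfia was at 1.07 (0.899 to 1.27), 0.925 (0.718 to 1.17), 10.3 (9.45 to 11.3) and 34.9 (33.6 to 36.3) CPM in other mesoderm. It reached 22.1 (18.9 to 25.7) and 16.1 (12.2 to 20.7) CPM in late cardiomyocytes, 21.6 (16.7 to 27.5) and 36.1 (31.7 to 40.9) CPM in late endothelial cells and 7.09 (5.61 to 8.85) and 11.6 (9.68 to 13.7) CPM in late muscle progenitors. Early values were between 0 and 1.95 CPM in all of these, some on few UMIs: 0 UMIs in muscle progenitors at E8.0 allow up to 4.44 CPM, and cardiomyocytes at E8.25 held 1 UMI. From E9.5 to E10.5 the log2 ratio of Nfia was 1.76 (1.62 to 1.90) in other mesoderm and -0.46 (-0.91 to -0.02) in cardiomyocytes. Nfix was measured at 0 to 1.77 CPM in the compartments outside blood, several of them on 0 UMIs. In blood it was at 1.55 (0.670 to 3.06), 0.756 (0.402 to 1.29) and 4.56 (3.80 to 5.42) CPM at E8.0, E8.25 and E10.5. At E8.0 this overlapped the endothelial value of 1.42 (0.829 to 2.28) CPM. The relative Nfic, also a nuclear factor I gene, was at 2.45, 2.12, 6.202 and 17.9 CPM in other mesoderm.

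A gene was counted as lower or higher late when each late library lay at least 2-fold below or above each early library, among genes reaching 10 CPM in at least 1 library. In cardiomyocytes 2 members were lower (Lin28a, Trim71), beside 0.940% of all genes measured, and 2 were higher (Nfia, Nfib), beside 4.06%. Endothelial cells gave the same 2 lower members (1.25% of genes) and the same 2 higher members (3.46%). Other mesoderm also gave the same 2 lower members (1.23%) and the same 2 higher members (3.31%). Muscle progenitors gave the same 2 lower members (1.72%) and Nfib alone as higher (2.67%), since 0 UMIs at E8.0 left a limit of 4.44 CPM for Nfia. Because the members were chosen with this change known, nothing is read from these counts against the background. Of the 10 members, 9 reached 10 CPM in each of these compartments, Nfix being the exception.

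Blood differed in composition. Haemoglobin genes took 4.72% of its UMIs at E8.0, 11.2% at E8.25 and 45.8% at E10.5, and the median gene was lower late by 1.03 on the log2 scale. On these totals 5 members were lower late (Lin28a, Lin28b, Igf2bp1, Igf2bp2, Igf2bp3), as were 41.7% of genes, and 0 were higher, as were 1.62% of genes. Trim71, Nfia, Nfib and Nfix did not reach 10 CPM in any blood library. With TMM-scaled sizes the median gene moved to 0.05 and the split of all genes to 4.94% lower and 7.50% higher. Then 4 members were lower (Lin28a, Lin28b, Igf2bp1, Igf2bp2) and Nfix was higher. Igf2bp1, the member with the highest blood level of its family, was at 109 (101 to 119) and 102 (97.0 to 107) CPM early and 13.4 (12.1 to 14.8) CPM at E10.5, and at 115, 115 and 24.8 CPM when haemoglobin UMIs were left out of the total. Lin28a was at 15.9, 17.2 and 0.985 CPM and Lin28b at 18.9, 15.7 and 3.61 CPM on the same reduced totals. Hmga2 was at 30.7, 31.7 and 44.9 CPM on them and at 29.3, 28.1 and 24.3 CPM on full totals, so its direction depended on the total.

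Free RNA sets a limit for the lowest blood values. Summed markers of mesoderm subsets in blood stood at 4.55%, 6.98% and 3.16% of their level in other mesoderm at E8.0, E8.25 and E10.5. At E10.5 Nfia and Nfib in blood stood at 2.55% and 2.18% of other mesoderm, below that background, so their UMIs there are not read as expression. Hmga2 in blood, at 6.06%, 7.66% and 4.06% of other mesoderm, was also close to it, and its blood values are read in the same way. Lin28a in blood, at 11.4%, 11.9% and 6.12%, was less than 3-fold above it, and the part of free RNA in its blood values and their change was not tested. Lin28b and Igf2bp1 in early blood were well above it, at 76.9% and 58.9% for Lin28b and 49.6% and 39.7% for Igf2bp1. Nfix was higher in blood than in other mesoderm in all 3 libraries.

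Within other mesoderm the same course was seen in subsets named by at least 2 detected genes of a short list. Cells that met this for another subset's list as well were left out. Lin28a in cells with paraxial genes (Meox1, Tcf15) was at 109, 116, 48.6 and 19.6 CPM, on 496, 170, 21 and 68 cells. With splanchnic genes (Foxf1, Wnt2, Osr1) it was at 149, 155, 48.1 and 8.14 CPM, and with mesenchymal genes (Prrx1, Twist1, Twist2) at 135, 129, 39.5 and 7.03 CPM. Nfib reached 90.4 (73.3 to 110), 113 (106 to 120) and 67.1 (64.2 to 70.0) CPM at E10.5 in the paraxial, splanchnic and mesenchymal subsets, from at most 2.28 CPM early. Nfia at E10.5 was at 59.7 (45.9 to 76.2) CPM in paraxial cells against 31.2 (27.6 to 35.1) and 34.0 (32.0 to 36.1) CPM in the other two. Late and early values did not overlap in any subset for these 3 genes, apart from the counting interval of Nfia in the 21 paraxial cells of E9.5, which rests on 2 UMIs. The genes were chosen with this change known, and the share of all genes without overlap in the subsets was not computed. Nothing is therefore read from this beyond the values.

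**Figure D2:**
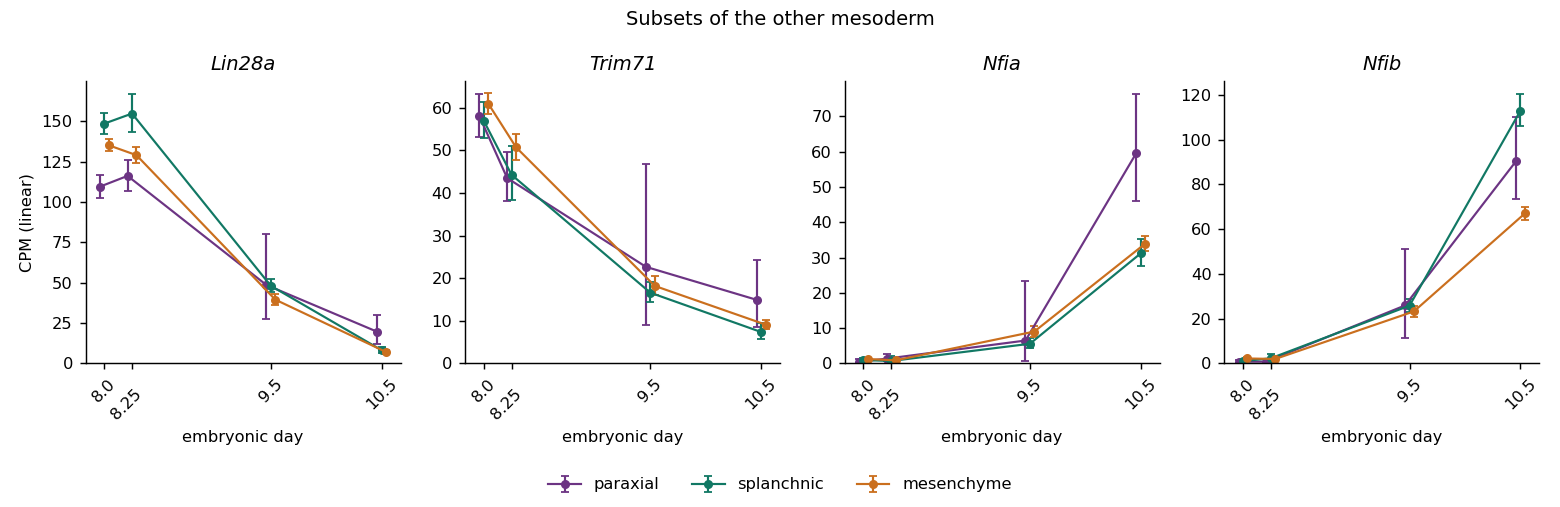
CPM on a linear axis of Lin28a, Trim71, Nfia and Nfib against embryonic day in 3 subsets of the other mesoderm, with exact 95% Poisson intervals. Lin28a and Trim71 decline and Nfia and Nfib climb in each subset; at E10.5 Nfib is at 113 CPM in splanchnic and 67.1 CPM in mesenchymal cells.

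Lin28a and Nfi transcripts were also compared within libraries, in cells thinned to 5000 UMIs each. At E9.5 other mesoderm cells with a UMI of Nfia or Nfib had Lin28a at 30.6 CPM (23.5 to 39.1, 412 cells) and those without at 41.3 CPM (37.7 to 45.2, 2328 cells). In cardiomyocytes of E9.5 the values were 14.8 (6.40 to 29.2) and 34.4 (26.0 to 44.6) CPM. At E10.5 other mesoderm gave 9.51 (7.75 to 11.6) and 10.2 (8.65 to 11.97) CPM. The intervals overlap in this pair and in both pairs at E9.5. Cells of 1 library are not replicates, so these values carry no test. The share of thinned other mesoderm cells with a Lin28a UMI went through 48.3%, 46.3%, 17.6% and 4.65%, and that with an Nfib UMI through 0.839%, 0.660%, 12.2% and 31.3%. Without thinning the shares were 89.3%, 95.5%, 46.9% and 10.8% for Lin28a and 3.03%, 3.49%, 29.3% and 58.8% for Nfib. In blood the thinned shares for Nfib were 0%, 0.312% and 1.45%.

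Differences between compartments were then tested, a contrast that the choice of members did not use. Each compartment was set against other mesoderm of the same libraries with edgeR's quasi-likelihood test and library as a block. The error is the spread of the difference over libraries of different stages, and p-values were adjusted by Benjamini-Hochberg over all genes tested. In cardiomyocytes 5 of 9 members tested differed, all lower, where 35.5% of genes were called. Lin28b was lower by a log2 difference of -1.38 ± 0.20 (SE, adjusted p = 0.00216), Igf2bp1 by -0.58 ± 0.07 (adjusted p = 0.00131) and Igf2bp2 by -0.57 ± 0.08 (adjusted p = 0.0022). Igf2bp3 (-0.29) and Trim71 (-0.41) passed with edgeR adjusted p-values of 0.0245 and 0.0246. Without E8.25 and without E10.5, Lin28b, Igf2bp1 and Igf2bp2 were the 3 members called. Igf2bp3 was also lost without E9.5, where Nfia was called, and Trim71 without any 1 of the 4 libraries.

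Endothelial cells gave 5 of 9 members called, where 40.6% of genes were. Lin28a was lower (-1.22 ± 0.35, adjusted p = 0.0304), as were Hmga2 (-0.62 ± 0.16, adjusted p = 0.0224), Igf2bp2 (-0.46 ± 0.08, adjusted p = 0.00494) and Igf2bp3 (-0.35 ± 0.07, adjusted p = 0.00888). Nfib was higher (1.78 ± 0.50, adjusted p = 0.0279). Without E9.5 the calls of Lin28a, Hmga2 and Nfib were lost and 2 were left, Igf2bp2 and Igf2bp3. Without E8.25 the calls of Lin28a and Nfib were lost, and without E8.0 that of Nfib. In muscle progenitors, where 4.55% of genes were called, no member other than Nfia and Nfib was. Both had 0 UMIs there at E8.0 and passed the filter on low counts through their level in other mesoderm. Their differences (-1.07 and -0.78 on the log2 scale, in that order) are descriptions, with no test. DESeq2 called 0 of the 9 in muscle progenitors.

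In blood, with 3 libraries, Lin28a, Hmga2, Igf2bp1, Igf2bp2, Igf2bp3 and Trim71 were called, where 52.1% of genes were. All of these were lower, from Igf2bp1 (-1.14 ± 0.29, adjusted p = 0.0171) to Hmga2 (-3.30 ± 0.17, adjusted p = 0.000117). Hmga2 in blood was close to the level of free RNA, as given above. The part of free RNA in the size of these differences was not tested. Nfix passed the filter on low counts through its blood level, and Nfia and Nfib through their level in other mesoderm. Their differences (3.58, -3.44 and -3.52 on the log2 scale, in that order) are descriptions, with no test. Lin28b was not called in blood (-0.42 ± 0.25, adjusted p = 0.204).

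**Figure D3:**
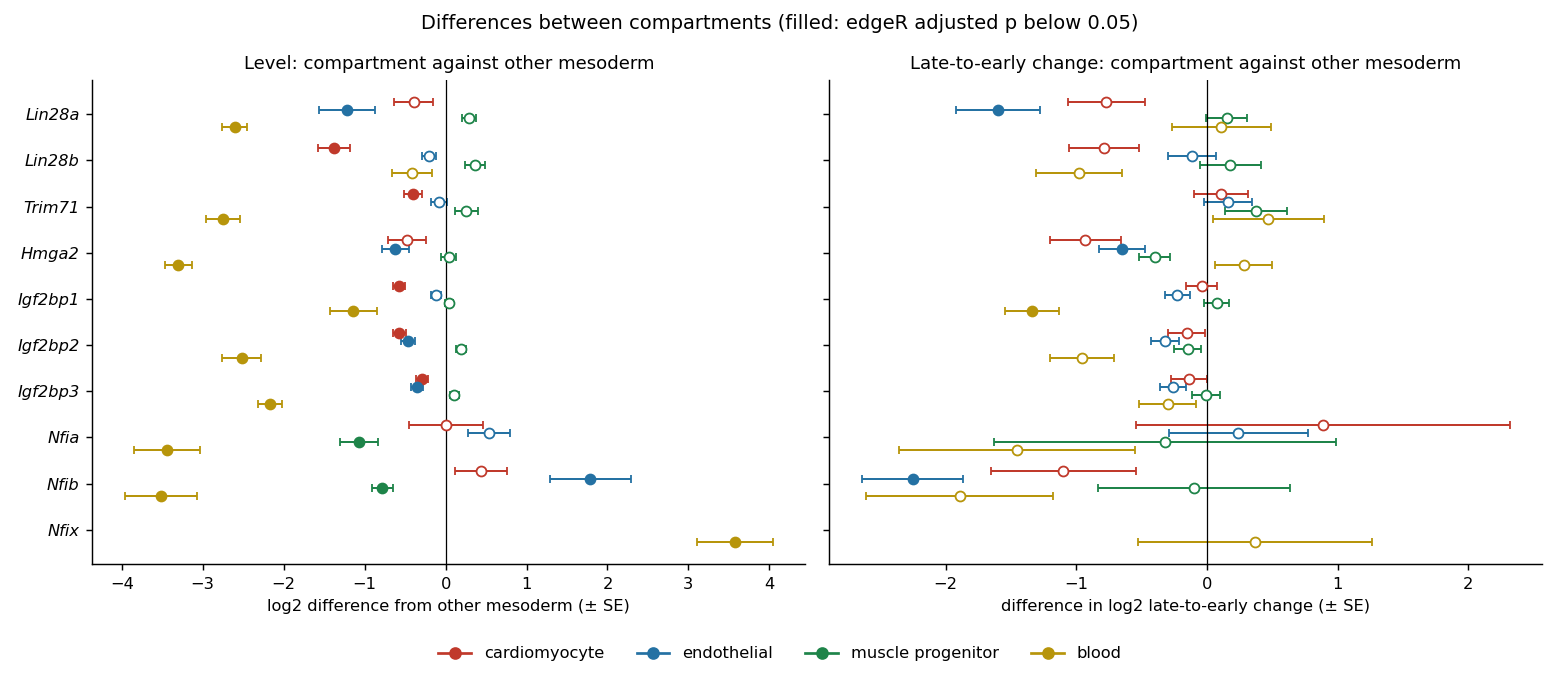
Left, log2 difference in level of each member between a compartment and other mesoderm; right, difference between their log2 late-to-early changes; points are edgeR estimates ± SE over 4 libraries (3 for blood), filled where the adjusted p is below 0.05. On the left, Nfia, Nfib and Nfix in blood and Nfia and Nfib in muscle progenitors are descriptions, with no test. On the right, the filled points are Lin28a (-1.60), Hmga2 (-0.65) and Nfib (-2.25) in endothelial cells and Igf2bp1 (-1.34) in blood.

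Whether the change with stage was common to all compartments was asked by testing the difference of late-to-early changes. For cardiomyocytes edgeR called 0 of 9 members, where 4.80% of genes were called. Its unadjusted p was under 0.05 for 3 members (Lin28a, Lin28b and Hmga2), beside 2592 of 13492 genes. DESeq2 also called 0. The estimate was -0.77 ± 0.29 for Lin28a (adjusted p = 0.193), -0.93 ± 0.27 for Hmga2 (adjusted p = 0.0948) and -1.10 ± 0.56 for Nfib (adjusted p = 0.324). Without E9.5 these 3 members were called, and without E10.5 Hmga2 was.

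For endothelial cells 3 of 9 members were called, where 7.91% of genes were. The late-to-early change of Lin28a was more negative there than in other mesoderm (-1.60 ± 0.32, adjusted p = 0.0117), that of Nfib was smaller (-2.25 ± 0.39, adjusted p = 0.0054), and that of Hmga2 was also lower than in other mesoderm (-0.65 ± 0.17, adjusted p = 0.0443). Nfib was at 8.79 and 14.7 CPM in early endothelial cells and at 1.65 and 1.26 CPM in early other mesoderm. DESeq2 called Nfib only, and without E10.5 Lin28a alone was called. The Hmga2 call was lost under 9 of 13 alternatives.

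For muscle progenitors edgeR called 0 of 9 members, where 0.601% of genes were called, and DESeq2 called 0 as well. Among the members only Hmga2 had an edgeR unadjusted p under 0.05 (-0.40 ± 0.12, adjusted p = 0.255), beside 1252 of 13486 genes. Without E9.5 Hmga2 was called. The difference for Lin28a was 0.15 ± 0.16 and for Nfib -0.10 ± 0.73, the latter with 0 and 3 early UMIs in muscle progenitors. For blood the late arm was the E10.5 library alone, with 1 residual degree of freedom, so that library is assumed to vary as the early pair did. On that assumption 1 of 10 members was called, Igf2bp1 (-1.34 ± 0.21, adjusted p = 0.00892), where 5.89% of genes were. Lin28a in blood did not differ from other mesoderm beyond its error (0.11 ± 0.38, adjusted p = 0.938). With 1 or 2 residual degrees of freedom, a difference that was not called is not shown to be absent.

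Other genes of the pathway were taken from lists chosen with earlier results of these data known. As for the members, nothing is read from their counts against all genes. Of 13 genes of let-7 maturation and turnover, such as Drosha, Dicer1 and the uridylyl transferases Zcchc11 and Zcchc6, 0 of 11 measured in cardiomyocytes and 0 of 12 in endothelial cells and other mesoderm were lower or higher late. In muscle progenitors 1 of 12 was higher, the exonuclease gene Dis3l2, and in blood 5 of 10 were lower on full totals, near the 41.7% of all blood genes. Of 20 other known let-7 targets, 3 of 17 measured were lower in cardiomyocytes, 3 of 19 in muscle progenitors and 3 of 20 in other mesoderm, each time Arid3b, Nr6a1 and Prtg, and 1 of 20 in endothelial cells (Nr6a1). The shares of all genes lower late were 0.940%, 1.72%, 1.23% and 1.25% in the same order. Thbs1 was higher in endothelial cells and other mesoderm and Igdcc3 in muscle progenitors. The median of this list was -0.13 on the log2 scale in other mesoderm, beside 0.07 for all genes. It was -0.25 in cardiomyocytes, -0.39 in endothelial cells and -0.17 in muscle progenitors, beside 0.03, 0.03 and 0.06 for all genes. In blood 8 of 14 were lower on full totals, beside 41.7% of all genes, a share that was 4.94% with TMM sizes.

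Nr6a1, an orphan nuclear receptor of early embryos, was at 44.97, 52.9, 13.9 and 2.56 CPM in other mesoderm and 27.5, 33.4, 7.64 and 3.27 CPM in cardiomyocytes, and its 3′ UTR held 8 let-7 seed matches. Prtg, a cell-surface receptor of early mesoderm and neural tube, was at 327, 296, 118 and 29.6 CPM in other mesoderm. Among 9 pluripotency-associated genes few were measured. The de novo methyltransferase Dnmt3b was lower in cardiomyocytes, endothelial cells and blood, and Sall4, a zinc finger factor, in cardiomyocytes and blood. Of the imprinted growth genes, neither Igf2 nor H19 was lower or higher late in any compartment. Hmga1, the relative of Hmga2, was at 219, 320, 183 and 92.6 CPM in other mesoderm, and its decline passed the 2-fold limit in blood only. There 41.7% of all genes were lower late on full totals, so nothing is read from Hmga1, Dnmt3b or Sall4 being lower in blood.

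**Figure D4:**
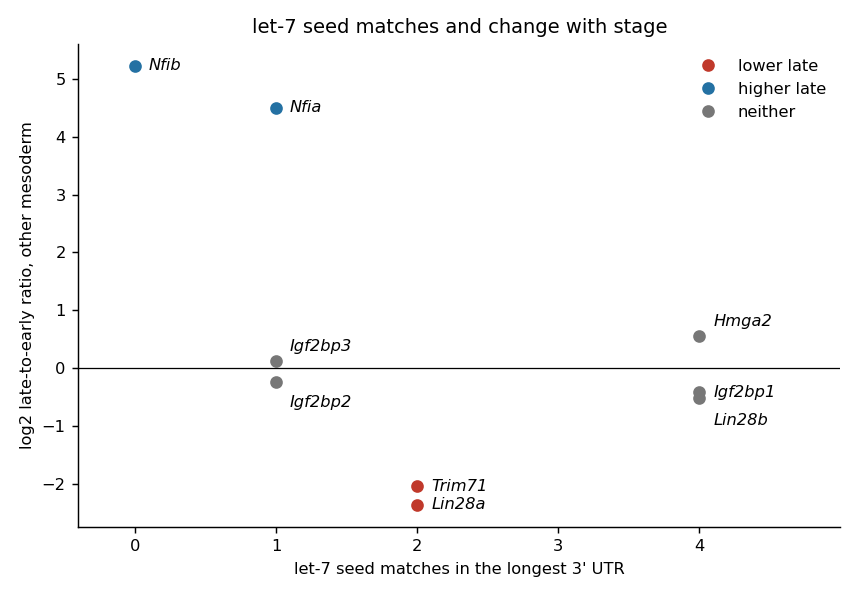
Log2 ratio of mean late to mean early CPM in other mesoderm against the number of 7-base let-7 seed matches in the longest 3′ UTR, for the 9 members reaching 10 CPM. Lin28a and Trim71, with 2 matches each, are lowest at -2.37 and -2.04, while Lin28b (-0.51), Igf2bp1 (-0.42) and Hmga2 (0.55), with 4 each, lie nearer 0.

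The number of 7-base seed matches did not order the members by their change. Lin28a and Trim71, with 2 matches, changed by -2.37 and -2.04 on the log2 scale in other mesoderm. Lin28b, Igf2bp1 and Hmga2, with 4, changed by -0.51, -0.42 and 0.55. Matches followed by A gave another order: 2 each in Lin28a and Trim71, 3 in Igf2bp1 and 1 each in Lin28b, Hmga2, Igf2bp2 and Igf2bp3. The part of let-7 in these changes was not tested. The genes whose levels most resembled Lin28a were Nr6a1 (r = 0.940), Sall4 (r = 0.921), Prtg (r = 0.910), Ifitm1 (r = 0.904) and Mir17hg (r = 0.898), by Pearson's r of log2(CPM + 1) over the 19 sums of library and compartment, among 9849 genes. For Nfib they were Mov10 (r = 0.947), Creb5 (r = 0.942), Nfia (r = 0.942), Tspan17 (r = 0.922) and Filip1l (r = 0.918). Sums of 1 library share its depth and free RNA, so these values are descriptions.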

How the data were processed

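Single-cell RNA sequencing of sorted GFP positive cells was performed with the 10x 3′ version 2 kit in 4 libraries, 1 per stage. The authors aligned reads to mm10 with Cell Ranger 3.1.0 (per the labels) and deposited raw UMI counts per gene and cell, without normalization. From these, cells with at least 1000 genes and at most 10% mitochondrial UMIs were retained, and doublets were removed by Scrublet score (scanpy 1.11.5) at 0.8% per 1000 cells. This left 7118, 2884, 3921 and 7525 cells in stage order, with median UMIs of 21321, 35216, 17254 and 15205.

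A cell entered a compartment when it held at least 4 of 8 cardiomyocyte markers and 40 marker UMIs per 10000, 4 of 8 endothelial markers and 8 per 10000, 3 of 7 muscle progenitor markers and 2 per 10000, or 4 of 10 blood markers and 200 per 10000. These thresholds were set after marker levels were seen. Cells with at least 3 macrophage, 4 epithelial or 3 neural markers, or passing more than 1 gate, were left out of other mesoderm. UMIs were summed per library and compartment where at least 20 cells were present. The limit for a count of 0 was 3 UMIs per sum, and the lower side of a 2-fold count was raised to it.

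Tests were made in R 4.3.3 with edgeR 4.0.16 (glmQLFit, TMM, filterByExpr, FDR 0.05) on the 2 compartments compared. Library was a block because both compartments came from 1 sorted sample, and the design gave this pairing. For change with stage, the compartment by period term was tested. DESeq2 1.42.0 and other settings served as alternatives, and the test code was tested on simulated data. With 1 library per stage, p-values measure spread between libraries of different stages.

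The members and lists were chosen with earlier results of these data known. Named genes were all members, Hmga1, Nfic, up to 4 genes per list and direction that were counted in most compartments measured, and the 5 genes most like Lin28a and Nfib. Igdcc3, Dis3l2, Sall4 in single compartments, Igf2 and H19 were named after their values were seen. Amino acid sequences were not used here.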

Additional observations from a re-analysis of the deposited data

Results flagged for a closer look

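The change with stage differed from that of other mesoderm, by edgeR's test of the difference with adjusted p, in 4 cases. In endothelial cells the log2 difference was -1.60 for Lin28a (adjusted p = 0.0117), -0.65 for Hmga2 (adjusted p = 0.0443) and -2.25 for Nfib (adjusted p = 0.0054). In blood it was -1.34 for Igf2bp1 (adjusted p = 0.00892), in a fit whose late arm was 1 library, with 1 residual degree of freedom. Haemoglobin's share of blood UMIs moved with the last of these, and its part in the result was not tested.

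Cells kept out of the comparisons also held member transcripts. The 118 cells of the neural gate at E8.25 had Lin28a at 162 CPM (151 to 174), Lin28b at 28.3 CPM, Hmga2 at 292 CPM, Igf2bp1 at 271 CPM, Igf2bp2 at 98.2 CPM, Igf2bp3 at 111 CPM, Trim71 at 64.0 CPM (57.2 to 71.5) and Nfib at 0.803 CPM. Nfib in these neural cells rested on 4 UMIs. Lin28a and Trim71 in other mesoderm of that library were at 128 and 47.5 CPM. The 79 cells of the macrophage gate at E10.5 had Lin28b at 18.2 CPM (13.04 to 24.7), Hmga2 at 88.7 CPM, Igf2bp1 at 108 CPM, Igf2bp2 at 25.3 CPM, Igf2bp3 at 78.9 CPM, Trim71 at 4.43 CPM, Nfib at 2.66 CPM and Nfix at 1.77 CPM. Lin28a there rested on 2 UMIs, Nfix on 4, Nfib on 6 and Trim71 on 10. Nfib in other mesoderm of E10.5 was at 81.8 CPM, and the part of free RNA in these low values was not tested. These values come from 1 library each.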

How the results depend on the processing

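No late-to-early change of a counted member and no called difference between compartments reversed under any alternative run. Of 310 alternative fits of the 25 called differences, 252 kept the call and 58 lost it. The 25 include Nfia, Nfib and Nfix in blood and Nfia and Nfib in muscle progenitors, whose differences are descriptions. Of 144 alternatives for the late-to-early log2 changes, 33 moved the value beyond its counting interval, the most in cardiomyocyte Nfia (3.66, and 1.65 in thinned cells) and muscle progenitor Nfib (3.48, and 5.51 with the gate of 2 markers).

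Counts of members by stage moved as follows. A 3-fold limit left 1 lower member in cardiomyocytes, endothelial cells and other mesoderm and 0 in muscle progenitors. Doubled marker thresholds and cells thinned to 5000 UMIs left 1 lower in endothelial cells, and thinning left 1 higher in cardiomyocytes (Nfib). Lin28b joined the lower cardiomyocyte members, giving 3, with reduced totals, means over cells and a 1.5-fold limit, and took the place of Trim71 in thinned cells. A 1.5-fold limit gave 2 higher in muscle progenitors, as did a gate of 2 markers, chosen after seeing the data. In blood, TMM sizes and totals without haemoglobin, mitochondrial and ribosomal protein genes gave 1 higher.

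Without the replicate block (the pairing by library), 0 members were called in cardiomyocytes, endothelial cells and muscle progenitors and 4 in blood, and 0 in the tests of stage change for endothelial cells and blood. Thinned cells gave 3 calls in cardiomyocytes. For muscle progenitors DESeq2 and the gate of 2 markers gave 0 calls and doubled thresholds 1, that of Nfib, whose difference there is a description.

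For stage change in cardiomyocytes, no filter on low counts gave 2 calls, and doubled thresholds, thinned cells and the gate of 2 markers 1 each. DESeq2 gave 1 for endothelial cells. No filter gave 1 for muscle progenitors. In blood, DESeq2 size factors in edgeR, no filter, doubled thresholds and no cell filter or doublet removal gave 2 each.

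Leaving out 1 library in turn, members called ranged from 3 to 5 in cardiomyocytes, 2 to 5 in endothelial cells, 0 to 2 in muscle progenitors and 9 to 9 in blood, Nfia, Nfib and Nfix included. For stage change the ranges were 0 to 3, 1 to 3 and 0 to 1 outside blood. In blood that left no residual degrees of freedom, and thinned or strictly gated muscle progenitors had too few early cells for some values. The cause of these shifts was not tested.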

Other observations

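Across the 19 sums of library and compartment, Lin28a followed Trim71 (Pearson's r = 0.888) more closely than Lin28b (r = 0.732). Hmga2 followed Igf2bp3 (r = 0.954) and Igf2bp2 (r = 0.913), while its r with Lin28a was 0.495. These are descriptions over sums that share libraries.

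A mesothelial subset held cells of other mesoderm with at least 2 mesothelial genes (Wt1, Upk3b, Tbx18) that met no other subset's list. Its 81 cells at E9.5 had Nfia already at 36.4 CPM (27.3 to 47.6), where all other mesoderm was at 10.3 CPM. Its 186 cells at E10.5 had Nfia at 63.7 CPM (55.8 to 72.3). Nfib in the subset was at 58.4 CPM (46.6 to 72.2) and 114 CPM (104 to 126) at these stages. The early libraries held 4 such cells each, so no change with stage is given. Lin28a in these cells was at 30.9 CPM (22.5 to 41.3) and 13.1 CPM (9.70 to 17.3).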
